A study of Mus musculus with 8 samples.

Results

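The Pramel genes are the mouse members of the PRAME gene family that carry this root symbol. All protein-coding genes of GRCm38 (mm10) on chromosomes 1 to 19 whose symbol begins with *Pramel* were taken, which gave 45 of 20665 protein-coding genes, and peaks were sought in each gene and within 10 kb of it. The cells were a line of brown preadipocytes (BAC) kept growing by SV40 large T antigen. The donors were newborn mice with both *Cars2* alleles floxed (*Cars2* flox/flox), and the tissue was their interscapular brown fat. The cells carried a retroviral empty vector (Vec, the genotype labelled WT) or retroviral Cre recombinase (Cre, labelled CarS2-KO). Descent from *Cars2* flox/flox donors, the large T antigen and drug selection for the vector were shared by all cells. *Cars2* encodes a mitochondrial cysteinyl-tRNA synthetase. All cells had been taken through adipogenic differentiation before Cut & Tag, an assay in which an antibody on chromatin guides a transposase that cuts and tags the DNA beside it. One antibody was against EBF2, a transcription factor of brown fat, and the other against H3K27ac, the acetylated histone found at promoters and enhancers in use. There were 2 libraries for each antibody and cell type, 8 in all, with 1 list of peaks each. The labels do not say whether the libraries of a group came from separate cultures, so the spread between them may be technical. In EBF2 Cre replicate 1 the peak names carry Cars2AKO, a term for an adipocyte-specific knockout mouse, while the label gives BAC with Cre, and the label was followed.

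PRAME family proteins are built of leucine-rich repeats, and the best known of them act as substrate receptors of CUL2 ubiquitin ligases. The genes are known for expression in the germ line and the early embryo rather than in somatic tissue, and in the mouse they lie in tandem arrays that arose by gene duplication. *Pramel7* favours the degradation of UHRF1, a factor of DNA methylation maintenance, in naive pluripotent cells, *Pramel1* is known from sperm development, and *Pramel13*, also called *Pramef12*, from spermatogonial stem cells.

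The 45 genes formed 6 clusters when members up to 1 Mb apart were joined. Chromosome 2 held *Pramel7* and *Pramel6* within 21.8 kb. Chromosome 4 held *Pramel32* alone, a group of *Pramel17*, *Pramel18* and *Pramel19* within 108.2 kb, and a large cluster of 20 genes from 143394441 to 144408467. Chromosome 5 held 18 genes from 93481827 to 95736173, a span of 2.25 Mb against 1.01 Mb for the large cluster of chromosome 4. Chromosome 12 held *Pramel51*. The members of chromosome 5 were longer, with a median gene length of 15.6 kb (2.7 to 60.7 kb) against 6.29 kb (2.83 to 16.8 kb) in the chromosome 4 cluster. For 10 of the 18 members on chromosome 5 RefSeq gave only predicted models, and for none of the 20 on chromosome 4.

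The 250 bases before the RefSeq start sites (GRCm38.p6, printed on the strand of the gene) ranged from unlike to identical between members, with a median identity of 84.2% to the closest other member. Sets of close copies were chosen for printing. The first set is the largest such group, and its 6 genes lay inside the wide chromosome 5 peak described below. *Pramel38*, *Pramel40*, *Pramel45* and *Pramel48* also lay inside it and are not shown, with 90.8%, 66.4%, 64.8% and 90.8% identity to their closest member. They are *Pramel37* (chr5:94070546-94070795, minus strand), *Pramel50* (chr5:95736174-95736423, minus strand), *Pramel39* (chr5:94306797-94307046, minus strand), *Pramel43* (chr5:94616341-94616590, minus strand), *Pramel46* (chr5:95272756-95273005, minus strand) and *Pramel49* (chr5:95594863-95595112, minus strand). Capitals mark the bases that differ from *Pramel37* or have no partner in it, and there were 0 in *Pramel50*, 4 in *Pramel39*, 5 in *Pramel43*, 19 in *Pramel46* and 18 in *Pramel49*. A run of capitals at the 3′ end lies past the last printed base of *Pramel37* in the alignment.
Pramel37: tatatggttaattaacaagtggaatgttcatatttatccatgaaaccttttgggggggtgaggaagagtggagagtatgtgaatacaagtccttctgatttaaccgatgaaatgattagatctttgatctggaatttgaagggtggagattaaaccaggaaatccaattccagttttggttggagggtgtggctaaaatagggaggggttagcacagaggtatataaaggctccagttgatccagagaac
Pramel50: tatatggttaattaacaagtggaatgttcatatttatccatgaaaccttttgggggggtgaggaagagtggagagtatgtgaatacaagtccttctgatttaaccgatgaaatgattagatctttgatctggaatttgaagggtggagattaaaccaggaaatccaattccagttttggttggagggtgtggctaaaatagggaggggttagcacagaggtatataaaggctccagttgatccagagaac
Pramel39: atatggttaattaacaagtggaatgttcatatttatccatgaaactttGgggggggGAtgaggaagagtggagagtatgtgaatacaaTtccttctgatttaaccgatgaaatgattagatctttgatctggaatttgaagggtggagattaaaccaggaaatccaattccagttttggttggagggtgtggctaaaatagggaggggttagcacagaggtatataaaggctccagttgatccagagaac
Pramel43: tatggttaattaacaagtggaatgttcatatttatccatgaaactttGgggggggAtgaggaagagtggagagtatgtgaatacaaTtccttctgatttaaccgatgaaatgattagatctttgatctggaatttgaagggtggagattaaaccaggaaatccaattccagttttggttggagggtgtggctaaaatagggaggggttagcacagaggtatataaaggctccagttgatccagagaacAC
Pramel46: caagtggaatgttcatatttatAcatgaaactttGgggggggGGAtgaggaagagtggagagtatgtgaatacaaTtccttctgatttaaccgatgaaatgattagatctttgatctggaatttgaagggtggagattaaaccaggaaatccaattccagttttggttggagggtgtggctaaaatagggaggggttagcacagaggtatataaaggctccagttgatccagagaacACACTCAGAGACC
Pramel49: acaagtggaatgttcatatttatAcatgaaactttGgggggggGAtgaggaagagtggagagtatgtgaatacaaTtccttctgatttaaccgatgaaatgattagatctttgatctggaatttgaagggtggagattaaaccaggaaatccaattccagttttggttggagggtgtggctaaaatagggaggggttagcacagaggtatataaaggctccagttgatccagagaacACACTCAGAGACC

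The second set is shown because the left edge of that peak fell in or just before *Pramel35*, while *Pramel33* lay outside the peak. *Pramel35* (chr5:93794374-93794623, plus strand) had a peak in all 8 lists, and *Pramel33* (chr5:93536332-93536581, minus strand) had none within 10 kb in any list. Their upstream sequences were 99.6% identical and differed at the 1 base in capitals.
Pramel35: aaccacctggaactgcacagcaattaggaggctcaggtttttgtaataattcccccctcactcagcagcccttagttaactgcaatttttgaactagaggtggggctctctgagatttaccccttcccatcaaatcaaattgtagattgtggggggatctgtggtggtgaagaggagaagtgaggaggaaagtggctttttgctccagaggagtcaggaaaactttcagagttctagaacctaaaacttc
Pramel33: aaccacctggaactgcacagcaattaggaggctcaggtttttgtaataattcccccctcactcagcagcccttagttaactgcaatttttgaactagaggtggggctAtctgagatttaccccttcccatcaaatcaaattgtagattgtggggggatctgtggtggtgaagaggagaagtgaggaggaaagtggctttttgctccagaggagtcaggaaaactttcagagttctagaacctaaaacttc

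The third set is the closest pair of chromosome 4, shown because neither gene had a peak within 10 kb in any list. *Pramel14* (chr4:143994370-143994619, minus strand) and *Pramel30* (chr4:144329999-144330248, plus strand) were 97.6% identical. Capitals mark the 6 bases of *Pramel30* that differ from *Pramel14* or have no partner in it.
Pramel14: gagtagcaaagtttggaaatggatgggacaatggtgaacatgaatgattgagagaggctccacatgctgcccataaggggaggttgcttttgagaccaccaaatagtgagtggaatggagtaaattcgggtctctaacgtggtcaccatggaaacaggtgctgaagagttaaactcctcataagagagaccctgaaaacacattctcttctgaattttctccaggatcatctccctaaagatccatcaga
Pramel30: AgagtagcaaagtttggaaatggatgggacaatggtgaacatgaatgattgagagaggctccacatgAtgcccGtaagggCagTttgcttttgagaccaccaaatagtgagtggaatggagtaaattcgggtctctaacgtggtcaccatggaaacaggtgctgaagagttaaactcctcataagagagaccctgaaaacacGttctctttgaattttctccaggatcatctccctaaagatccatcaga

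The EBF2 lists held 724 and 533 peaks in Vec and 660 and 676 in Cre, and the H3K27ac lists 836 and 646 in Vec and 673 and 902 in Cre. On chromosomes 1 to 19 they covered between 37.7 and 52.1 Mb. The lowest value, and the fewest peaks, belonged to EBF2 Vec replicate 2, which therefore stood apart, and each comparison over all libraries that uses it is also given without it. The lists hold no read counts, so the depth is unknown, and a stretch with no listed peak may hold signal under the threshold of the caller. The folds below are ratios to the caller's background and were read within a list only. No peak lay within 10 kb of any of 13 brown adipocyte markers, *Ucp1*, *Cidea* and *Pparg* among them, in any list. Over all genes only 3.09% to 6.2% had one in a list, so the labelled cell type could not be checked from the lists.

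A peak lay in or within 10 kb of 16 to 18 of the 45 *Pramel* genes in every list. In the EBF2 lists 18 and 16 members had such a peak in Vec, where 4.04% and 3.09% of all 20665 genes did, and 17 and 16 in Cre, where 4.06% and 3.91% did. In the H3K27ac lists 18 and 17 members had one in Vec, against 5.79% and 4.53% of all genes, and 17 and 17 in Cre, against 4.77% and 6.2%. The members' shares thus lay between 35.6% and 40% in every list. A peak was present in all 8 lists at 16 members, or 35.6%, against 2.87% of all genes, and 27 members had none in any list. These 16 are neighbours on chromosome 5 and share their peaks, so they are not 16 separate observations. When only peaks of 10 kb or less were kept, 1 member had a peak in EBF2 Cre replicate 1 and 1 in H3K27ac Vec replicate 2, in both cases *Pramel35*, and no other list had any. Under this limit 0.595%, 0.368%, 0.479% and 0.406% of all genes had a peak in the EBF2 lists (Vec, then Cre) and 1.83%, 0.716%, 0.857% and 2.32% in the H3K27ac lists, so that 0 or 1 of 45 members is near the background.

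**Figure D1:**
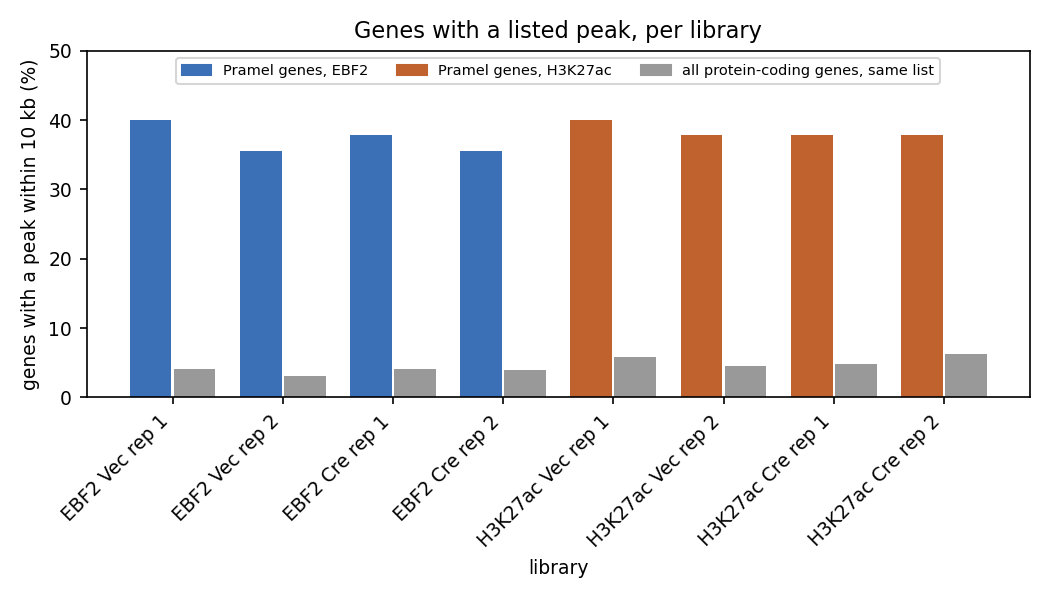
The bars give the percentage of genes with a listed peak in the gene or within 10 kb, for the 45 *Pramel* genes (coloured by antibody) and for all 20665 protein-coding genes of chromosomes 1 to 19 (grey), in each of the 8 libraries. The *Pramel* bars lie between 35.6% and 40% and the grey bars between 3.09% and 6.2%.

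**Figure D2:**
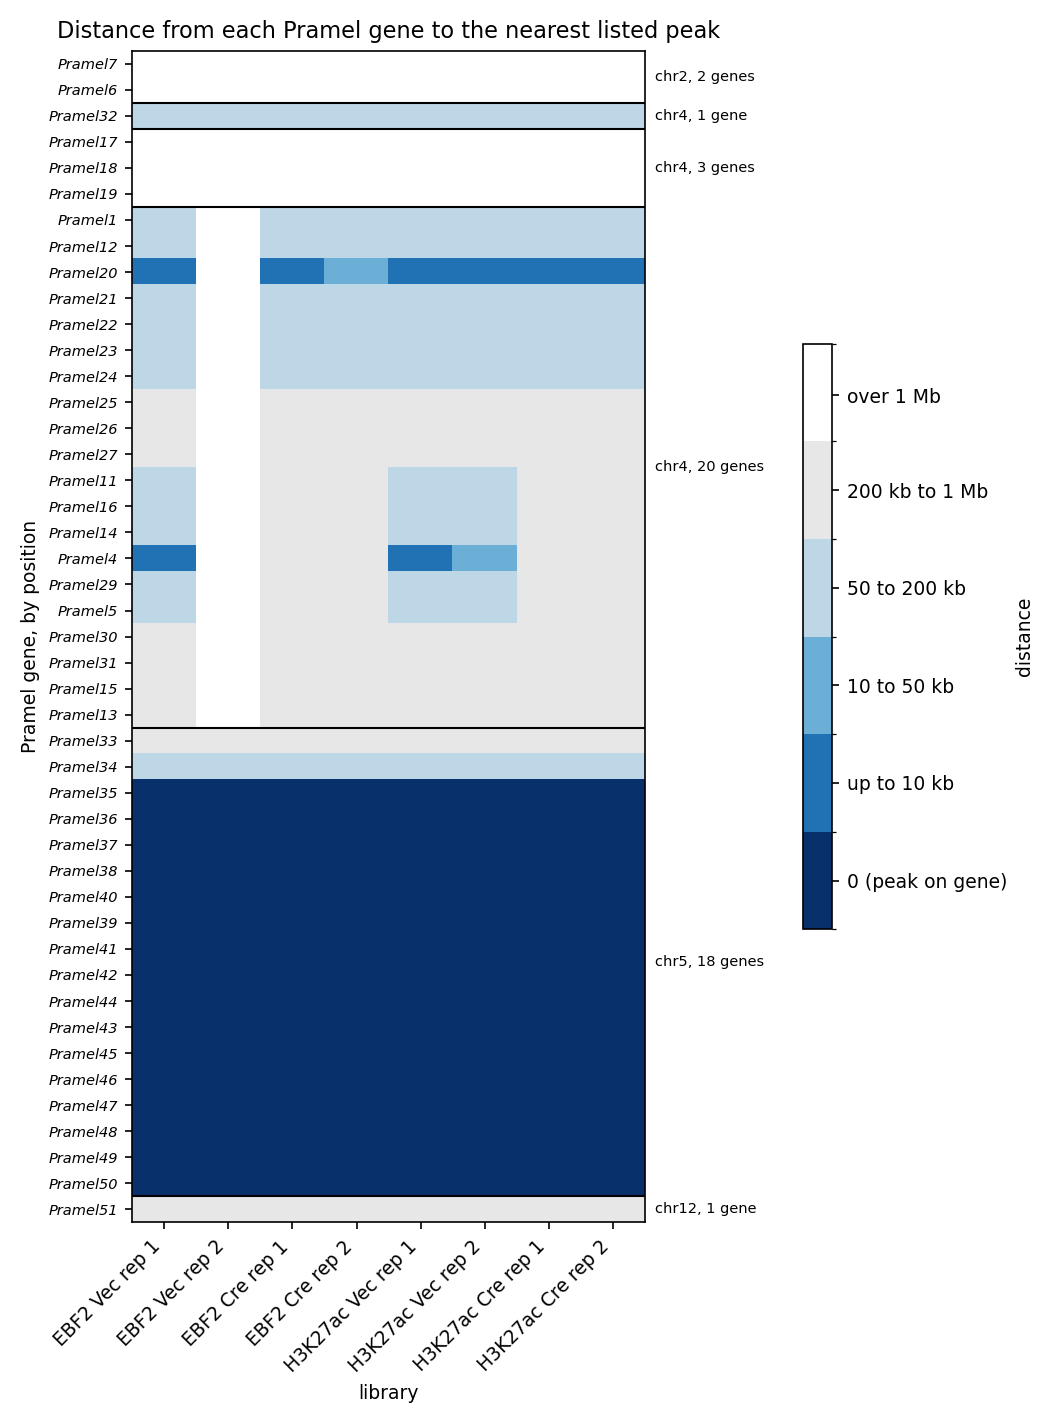
Each cell gives the distance from a *Pramel* gene (vertical, by position, with lines between clusters) to the nearest listed peak in a library (horizontal), in 6 classes. The 16 genes from *Pramel35* to *Pramel50* have a peak on the gene in all 8 libraries, and in the other clusters no gene does.

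On chromosome 5 the peaks were not local to single genes. In every list 1 peak of 1.96 to 2.02 Mb ran over the cluster and held 15 members whole, *Pramel36* to *Pramel50*, so that 100% of each gene body was covered in all 8 lists. The 3 named by the rule for this cluster, *Pramel36*, *Pramel37* and *Pramel38*, were each covered in full in every library. The widths were 1.98 and 1.96 Mb in the EBF2 Vec lists, 1.99 and 1.99 Mb in EBF2 Cre, 2.02 and 2 Mb in H3K27ac Vec, and 2 and 1.97 Mb in H3K27ac Cre. The peak stood high in every list. Its fold was 49.2 and 32.3 in EBF2 Vec and 50.7 and 50.9 in EBF2 Cre, where the median autosomal peak had 2.39 and 3.35, and 2.43 and 2.32. In the H3K27ac lists, whose folds are means over the region, it was 19.7 and 20.3 in Vec and 18.1 and 15.9 in Cre, with medians of 1.71 and 2.02, and 1.95 and 1.88. Among autosomal peaks its rank by fold was 5 or 6 in the EBF2 lists and 9 to 11 in the H3K27ac lists. By width it ranked 4 or 5, so every list held wider autosomal peaks elsewhere. Peaks over 10 kb made up 31% to 50.3% of the autosomal peaks in a list. The chromosome 5 peak made up 3.88% to 5.21% of the autosomal length covered in a list.

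**Figure D3:**
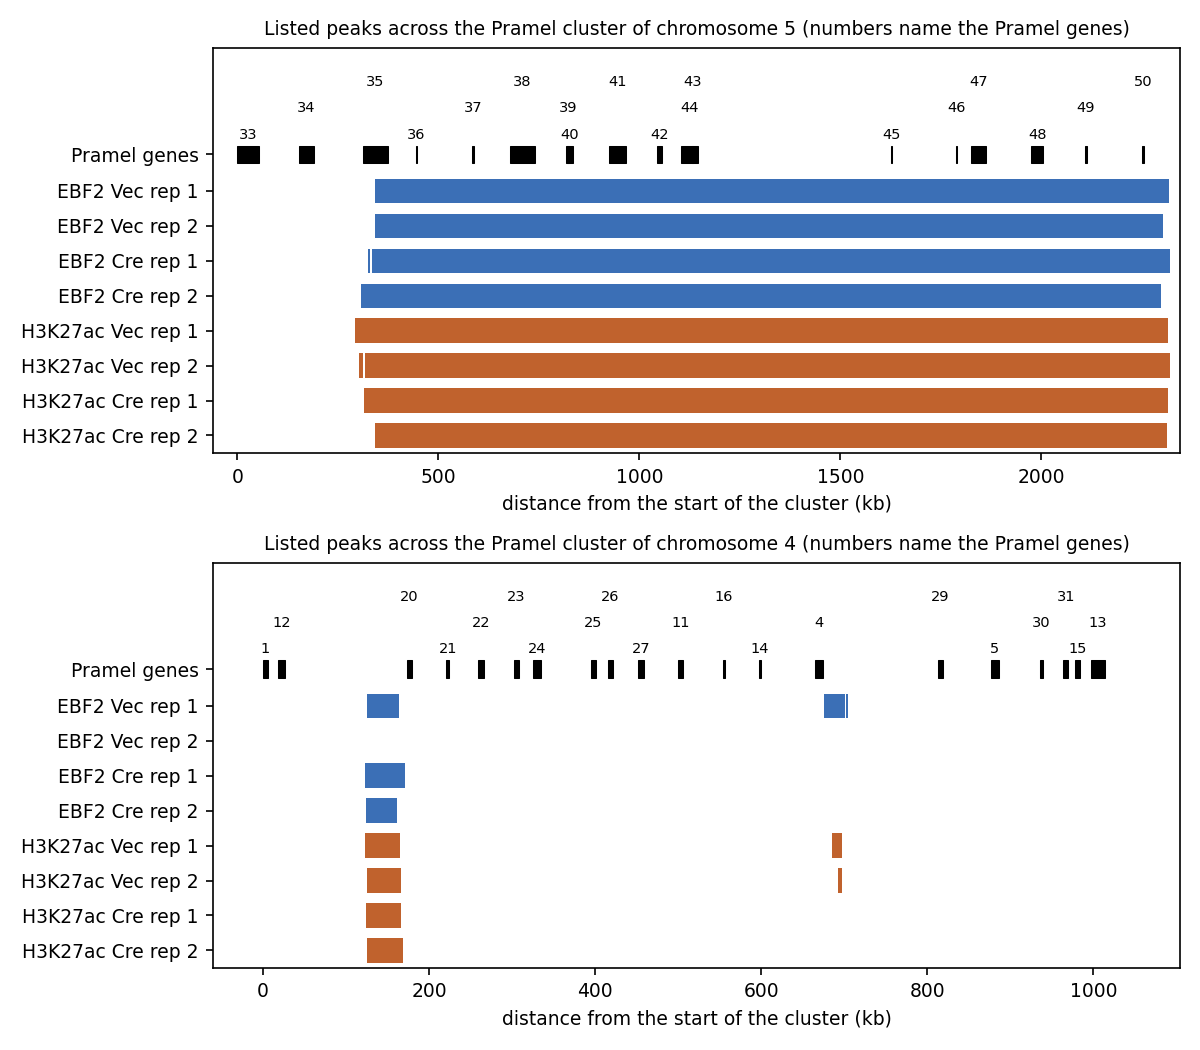
Bars show the listed peaks in each library, EBF2 in blue and H3K27ac in orange, along the *Pramel* clusters of chromosome 5 (top) and chromosome 4 (bottom), with the genes as black boxes and the distance from the cluster's start in kb. On chromosome 5 a peak of 1.96 to 2.02 Mb covers *Pramel36* to *Pramel50* in every library, and on chromosome 4 peaks of at most 48.1 kb lie between *Pramel* genes.

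The edges of this peak fell in nearly the same places with both antibodies and in both cell types. Its left edge lay between 93774494 and 93824509, a range of 50 kb, and its right edge between 95780532 and 95802390, a range of 21.9 kb. The length shared by all 8 lists was 96.5% of the length covered in any. The shared stretch held 26 protein-coding genes whole, the 15 members and 11 others, of which 10 carry Gm numbers and the remaining one is *AA792892*. To the right the peak ended 44.4 to 66.2 kb beyond *Pramel50*, the last member, inside the coding gene *E330014E10Rik* in all 8 lists. The next coding gene wholly outside was *Cxcl13*, a chemokine gene, 154.5 kb on. To the left the next coding gene that is not a member was *Ccng2*, 498.3 kb away.

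*Pramel35*, from 93794624 to 93855307, was the only member whose gene body was covered in part. The share of its body under peaks was 51.4% and 52.8% in EBF2 Vec, 73% and 100% in EBF2 Cre, 100% and 91.2% in H3K27ac Vec, and 96% and 50.8% in H3K27ac Cre. With EBF2, both Vec values lay below both Cre values, while with H3K27ac the values of Vec and Cre overlapped. The wide peak began 20.1 kb before the gene in H3K27ac Vec replicate 1 and 5.96 kb before it in EBF2 Cre replicate 2, and inside the gene in the other 6 lists, 2.4 to 29.9 kb from its start. The 250 bases before *Pramel35* printed above were accordingly under a peak in those 2 lists alone.

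Its neighbours *Pramel34* and *Pramel33* had no peak within 10 kb in any list. *Pramel34*, from 93635182 to 93671509, lay 103 to 153 kb from the nearest peak, and *Pramel33*, from 93481827 to 93536331, lay 238.2 to 288.2 kb away. The stretch between *Pramel34* and *Pramel35* is 123.1 kb long, shorter than the gap of 137.4 kb between *Pramel36* and *Pramel37* inside the peak. The widest gap between members, 481.6 kb between *Pramel44* and *Pramel45*, was covered in full in all 8 lists.

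The EBF2 lists also give a summit, the base at which the signal of a peak is highest. In the wide peak it lay at 94897896 and 94885879 in Vec and at 94904850 and 94902002 in Cre. All 4 summits fell in that widest gap, 203.6 to 222.6 kb from *Pramel45*, the nearest member, and 8.68 to 27.6 kb from *Gm3183*, the nearest coding gene. No summit lay in a *Pramel* gene. The H3K27ac lists give no summits.

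The chromosome 4 cluster of 20 members held no peak of this kind. No gene body in it was covered in any list, and 18 of its members had no peak within 10 kb. Of these, *Pramel1* lay at least 116.8 kb from a peak, *Pramel12* 95.5 kb, *Pramel21* 50.3 kb, *Pramel22* 89 kb and *Pramel23* 131.8 kb. *Pramel15*, a gene known from the mouse zygote, lay at least 273.9 kb away, and *Pramel13* at least 292.8 kb.

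*Pramel20*, from 143567467 to 143573798, had a peak within 10 kb in 6 of the 8 lists. The peak was 38.1 kb wide in EBF2 Vec replicate 1, 48.1 and 38 kb in EBF2 Cre, 41.9 and 40.8 kb in H3K27ac Vec and 41.8 and 43.5 kb in H3K27ac Cre. It overlapped *Gm13040* and *Gm13057* rather than *Pramel20*, and in EBF2 Cre replicate 1 and H3K27ac Vec replicate 1 *Gm13043* as well. It ended 9.64 kb from *Pramel20* in EBF2 Vec replicate 1, 2.73 and 11.5 kb from it in EBF2 Cre, 7.91 and 7.3 kb in H3K27ac Vec and 6.75 and 4.9 kb in H3K27ac Cre. The same peak was thus listed in 7 libraries, and in EBF2 Cre replicate 2 its end fell just outside the 10 kb window. Only EBF2 Vec replicate 2, the shortest list, had none, with its nearest peak 2075.6 kb away. The folds were 3.34 in EBF2 Vec, 4.21 and 3.48 in EBF2 Cre, 2.85 and 3.24 in H3K27ac Vec and 3.58 and 3.48 in H3K27ac Cre.

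*Pramel4*, from 144059125 to 144069327, had a peak within 10 kb in 2 lists, both from Vec cells. In EBF2 Vec replicate 1 a peak of 25.5 kb began 0.039 kb past the gene with a fold of 2.51, and in H3K27ac Vec replicate 1 one of 12.9 kb lay 9.77 kb away with a fold of 1.74. In H3K27ac Vec replicate 2 the nearest peak was 17.9 kb away with a fold of 1.93. In EBF2 Vec replicate 2 the nearest was 1580.1 kb away, and in the 4 Cre lists it was 494.4 to 503.2 kb away. By the rule that a member is lost when both Vec lists and neither Cre list have a peak within 10 kb, *Pramel4* was not lost with either antibody.

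The 4 other clusters had no peak on or within 10 kb of a member in any list. *Pramel7* and *Pramel6*, both known from naive pluripotent cells, lay 1718.1 to 2868.5 kb and 1699.7 to 2850 kb from the nearest peak. *Pramel17*, *Pramel18* and *Pramel19* lay at least 5691.5, 5623.6 and 5592.3 kb away. *Pramel32* lay 122.9 to 125.9 kb from a peak in every list. *Pramel51* lay 204.9 to 255.3 kb from the nearest peak. A peak of 234.9 to 408.2 kb on the same chromosome reached to within 10 kb of *Oog1*, another PRAME family gene, in all 8 lists. The 2 *Pramel* genes on chromosome X, *Pramel* and *Pramel3*, which are not among the 45, had no peak within 10 kb in any list and lay at least 64.5 and 26.3 kb from one.

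The comparison of Cre with Vec asks whether the peaks at the family changed where *Cars2* was removed. With EBF2, 18 and 16 members had a peak in Vec (17 ± 1.41, SD, n = 2) and 17 and 16 in Cre (16.5 ± 0.707, SD, n = 2). The difference of -0.5 genes was smaller than the spread between the libraries (exact permutation test, two-sided, p = 1). With H3K27ac, 18 and 17 had a peak in Vec (17.5 ± 0.707, SD, n = 2) and 17 and 17 in Cre (17 ± 0, SD, n = 2), again a difference of -0.5 (p = 1 by the same exact permutation test). The exact test cannot go below p = 0.333 when each group has 2 libraries, so it could not pass the threshold of 0.05. No member was lost or gained in Cre with either antibody. Over all genes, 0.0484% were lost and 0.0968% gained with EBF2, and 0.165% lost and 0.106% gained with H3K27ac, and a count of 0 among 45 members is near these shares. These counts depend on single libraries: without EBF2 Vec replicate 2 the EBF2 difference was -1.5 genes and 1 member, *Pramel4*, was lost. Without EBF2 Vec replicate 1 it was 0.5, and without H3K27ac Vec replicate 2 *Pramel4* was lost with that antibody as well. With a Vec library left out, the rule asks for a peak in the 1 remaining Vec list only. The share of all genes lost on these looser terms was not computed, so the loss of *Pramel4* has no background to be read against.

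The length covered within the 10 kb windows of the members, 1408.4 kb in all, varied between libraries mostly at a single gene, *Pramel35*, at the left edge of the wide peak. With EBF2 it was 576.4 and 567.0 kb in Vec (571.7 ± 6.68, SD, n = 2) and 586.5 and 601.6 kb in Cre (594.0 ± 10.7, SD, n = 2). Both Cre libraries lay above both Vec libraries, by 22.3 kb on average (exact permutation test, two-sided, p = 0.333). With H3K27ac it was 607.9 and 602.4 kb in Vec (605.2 ± 3.94, SD, n = 2) and 596.5 and 570.8 kb in Cre (583.7 ± 18.1, SD, n = 2). Both Cre libraries lay below both Vec libraries, by -21.5 kb on average (exact permutation test, two-sided, p = 0.333). Gene bodies other than that of *Pramel35* were covered in full in every list or in none, so over gene bodies alone the differences, 20.9 kb with EBF2 and -13.5 kb with H3K27ac, came from *Pramel35* only. They are therefore not a change across the family. The autosomal length covered by a whole list was 46.7 and 37.7 Mb in EBF2 Vec, 48.5 and 48.3 Mb in EBF2 Cre, 52.1 and 49.1 Mb in H3K27ac Vec and 48.3 and 49.8 Mb in H3K27ac Cre. Its part in these differences was not tested. The EBF2 difference was 17.6 kb without Vec replicate 2 and 14.8 kb without Cre replicate 2. The H3K27ac difference was -8.69 kb without Cre replicate 2 and -34.3 kb without Cre replicate 1. With peaks of 10 kb or less the differences shrank to 3.04 and -4.7 kb, and the libraries of Vec and Cre overlapped with both antibodies.

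**Figure D4:**
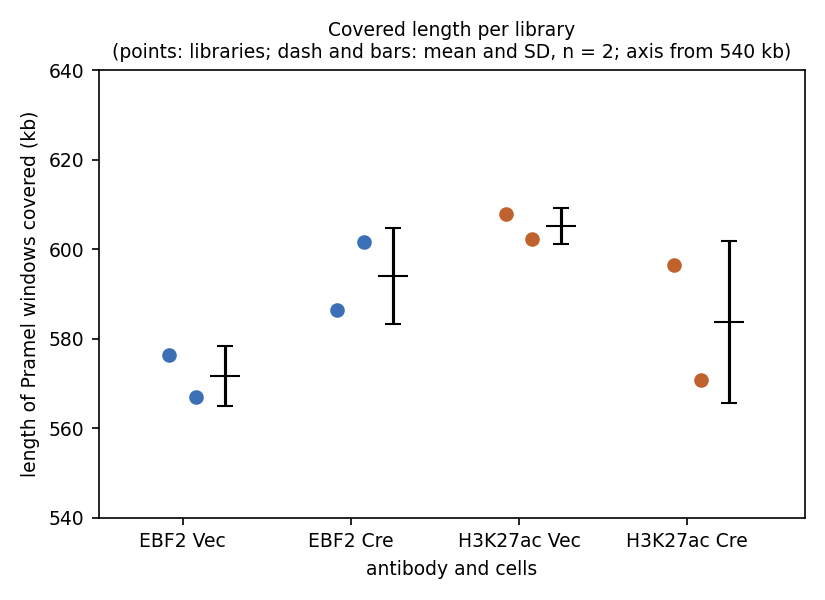
Points give the length (kb, on an axis that does not start at 0) of the windows of the 45 *Pramel* genes covered by peaks in each library, with the mean and SD of each group beside them (n = 2). The EBF2 Cre libraries, at 586.5 and 601.6 kb, lie above EBF2 Vec, and the H3K27ac Cre libraries, at 596.5 and 570.8 kb, lie below H3K27ac Vec.

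The lists of the antibodies could also be set against each other. A peak lay near 16.8 ± 0.957 members with EBF2 (SD, n = 4) and near 17.2 ± 0.5 with H3K27ac (SD, n = 4). The difference of -0.5 was within the spread of the libraries (exact permutation test, two-sided, p = 0.629, where 0.0286 is the smallest p that the test allows). It was -0.92 without EBF2 Vec replicate 1 (exact permutation test, p = 0.114), and -0.25 without EBF2 Vec replicate 2, without EBF2 Cre replicate 2 or without H3K27ac Vec replicate 1 (exact permutation test, p = 1 each). Within Vec and within Cre it was -0.5 in each case (exact permutation test, p = 1). The covered length was 582.9 ± 14.8 kb with EBF2 and 594.4 ± 16.4 kb with H3K27ac (SD, n = 4 each), a difference of -11.5 kb (exact permutation test, two-sided, p = 0.314). Without EBF2 Vec replicate 2, an alternative chosen after seeing the data, it was -6.24 kb (exact permutation test, p = 0.571). Within Vec it was -33.4 kb (exact permutation test, p = 0.333), and within Cre it had the opposite sign, at 10.4 kb (exact permutation test, p = 0.667).

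What the members with peaks share beyond their place was examined in their upstream sequences. RefSeq windows were found for 36 of the 45 members, 12 of them on chromosome 5. On chromosome 5 the 250 upstream bases were a median of 99.4% identical to those of the closest other member (64.8% to 100%), and in the chromosome 4 cluster 81.6% (59.2% to 97.6%). Identity of 90% or more to another member was found for 10 of the 12 on chromosome 5 and 2 of the 19 on chromosome 4. Among the 11 members with a window and a peak in all 8 lists, only *Pramel45* and *Pramel40* fell below this, at 64.8% and 66.4%. Identity was measured against other members alone, so likeness to genes under other symbols was not part of it. Conversely, *Pramel33* at 99.6% and the pair *Pramel14* and *Pramel30* at 97.6% had no peak. GC content did not set the groups apart, at a median of 41.6% (38% to 48%) in members with a peak in all lists and 42% (34.8% to 59.6%) in members with none.

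**Figure D5:**
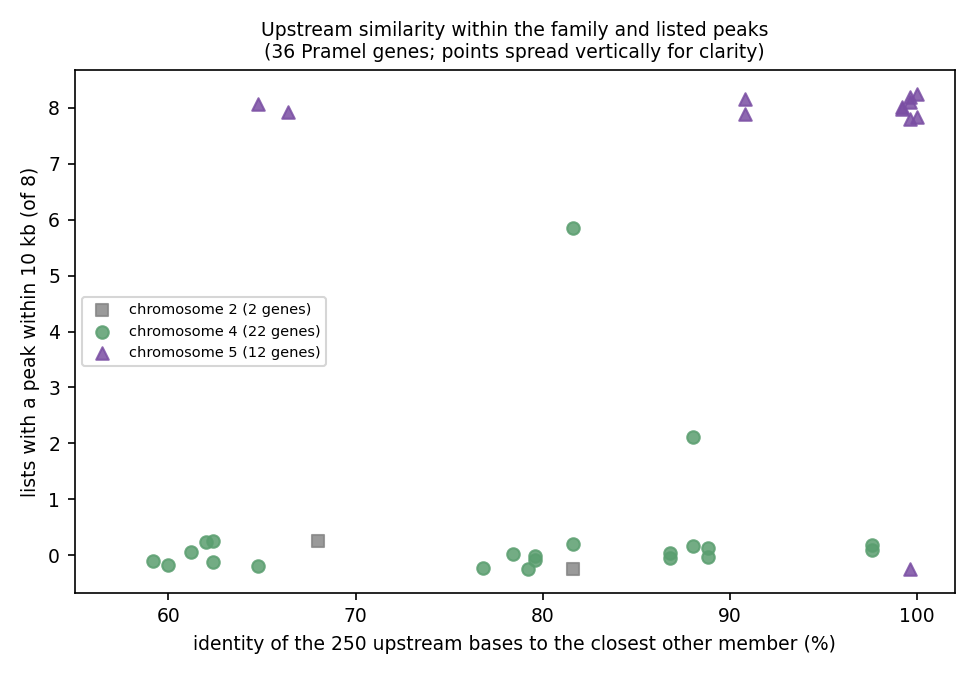
Each point is 1 of the 36 *Pramel* genes with a RefSeq upstream window, placed by the identity of its 250 upstream bases to the closest other member (%) and by the number of lists, of 8, with a peak within 10 kb. Of the 12 genes on chromosome 5, 11 lie at 8 lists and *Pramel33*, at 99.6% identity, lies at 0.

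Repetition among promoters was measured in a second way. The upstream bases of each gene were cut into overlapping words of 30 bases, and a word was called shared where the promoter window of another gene held it on either strand. Genes whose windows overlap another gene's were left out. The median share was 95.5% in the 11 members on chromosome 5 with a peak in all 8 lists. In the 19 members of the chromosome 4 cluster it was 11.3%. At least 50% of the words were shared in 4 of those 19 and in 11 of the 11 on chromosome 5. The 11 included *Pramel45* at 100% and *Pramel40* at 60.6%. *Pramel33*, the other member of chromosome 5 with a window, also reached 50%, at 86.4% of its words and with no peak in any list. This makes 12 of 12 on that chromosome. Among the 23 members with no peak in any list, 4 reached 50%. Over all coding genes 50% was reached by 4.8% of 14266, by 75.7% of the 465 genes with a peak in all 8 lists, and by 1.61% of the 13128 with none. Genes under the same wide peak were counted separately, the 11 members above among them, so the 465 are not separate observations. Reads from repeated sequence can be placed at more than 1 position, and how they were handled is not given in the sources used here. The part of this in the peaks was not tested. The palindromic EBF motif TCCCNNGGGA, which reads the same on both strands, was found in none of the 36 windows of 300 bases (250 before to 50 after the start), and in 0.914% of the windows of 27025 genes.

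Related genes and partners were looked up by fixed lists. Of 18 other names of PRAME family genes, 15 were found in the gene table, and 4 of these were protein-coding genes not among the members. *Oog1*, an oocyte gene, had a peak within 10 kb in all 8 lists, and *Oog2*, *Oog3* and *Oog4*, which lie within the chromosome 4 cluster, had none. *BC080696*, a non-coding entry within the chromosome 5 peak, was covered in all 8. Of 10 genes whose proteins are known to work with PRAME family proteins, among them *Cul2*, *Elob*, *Uhrf1* and *Dnmt1*, 0 had a peak in all lists and 1, *Ezh2*, had one in 2 lists. Over all genes 2.87% had a peak in all 8 lists, so 0 of 10 is near that share. Of 9 germ line and early embryo markers, *Zscan4c* and *Zscan4d*, from a tandem array active in the early embryo, had a peak in all 8 lists and *Zscan4f* in 4, while the other 6, *Ddx4*, *Dazl* and *Nanog* among them, had none.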

How the data were processed

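Cut & Tag peak lists of 8 libraries were analysed, grouped by the sample labels into EBF2 and H3K27ac, Vec and Cre, with 2 libraries each. The study's methods describe no processing of the Cut & Tag reads. The submitters' processing notes name bcl2fastq 2.17, Trimmomatic 0.33, HISAT2 2.2.1, MACS2 2.2.7 and the build mm10. Treatment of duplicate reads and of reads with several positions, a control library and caller settings are not given in the sources used here, and no control list was used here. The authors deposited 1 list per library. The score deposited by the authors for each peak is a whole number that follows the −log10 q-value. Each list deposited by the authors also holds the fold (a ratio of signal over what the caller took as background) with a −log10 p-value and a −log10 q-value. For the broad H3K27ac regions these are averages along the region. The EBF2 lists deposited by the authors also give the summit's offset. Columns of fold and score were used only within a list.

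From these lists were computed overlaps of at least 1 bp between peaks and gene windows (10 kb), shares of gene bodies covered, and covered lengths, with RefSeq genes of GRCm38.p6. Groups were compared by exact permutation tests over libraries, two-sided, at 0.05. The members, gene lists and tests were chosen with earlier results of these data known. Genes were named by a rule: in each cluster with a peak, the 3 members with the highest mean share of the body covered (ties by position), members lost or gained, up to 5 per cluster with no peak, and *Pramel1*, *Pramel6*, *Pramel7*, *Pramel12*, *Pramel13*, *Pramel15* and *Pramel19*. *Pramel4*, *Pramel14*, *Pramel20*, *Pramel30*, *Pramel35* and others in the sequence sets were chosen after their values were seen. Upstream sequences were aligned globally, without penalty at the ends, with Biopython 1.88. Python 3.11.15, numpy 2.4.6, pandas 2.3.3 and matplotlib 3.10.9 were used. The overlap functions were tested on simulated lists over 20665 genes, where 60 genes set as lost and 40 set as gained were all found. The alternatives were a window of 0 or 50 kb, a stricter score, equal numbers of peaks, peaks of 10 kb or less, at least 50% of the body covered, all chromosomes, clusters joined up to 250 kb, a replicate block, and leaving out each library. No protein sequence was used here.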

Additional observations from a re-analysis of the deposited data

Results flagged for a closer look

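The Cre minus Vec difference in the covered length of the *Pramel* windows had opposite signs with the antibodies. It was 22.3 kb with EBF2, where both Cre libraries lay above both Vec libraries, and -21.5 kb with H3K27ac, where both lay below. Neither could pass the threshold with 2 libraries per group. The gap between these values was 43.8 kb and was singled out because the order of the Cre and Vec libraries was opposite with the antibodies. It was not tested. Most of it lay at 1 gene, *Pramel35*, where the wide chromosome 5 peak has its left edge: over gene bodies alone, where no other member varied, the values were 20.9 and -13.5 kb. The separation was lost with EBF2 at a window of 50 kb and with H3K27ac for gene bodies only and for a stricter score. It was also lost with both antibodies for peaks of 10 kb or less, where the differences were 3.04 and -4.7 kb.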

How the results depend on the processing

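Of 123 alternative values, 2 reversed and 17 came to 0 or left the count reported. The other 104 kept the count reported or the direction of a difference, but not always its size. The 16 members with a peak in all lists remained 16 in every alternative except peaks of 10 kb or less, which left 0. The Cre minus Vec number of members was 0 with EBF2 for gene bodies only, a 50 kb window and 50% of the body covered, 0.5 (reversed) for peaks of 10 kb or less, and -1.5 to 0.5 when each library was left out, reversed without Vec replicate 1. With H3K27ac it was 0 for gene bodies only, a stricter score and 50% of the body covered, -1 with a 50 kb window, where both Vec libraries lay above both Cre libraries (exact test, p = 0.333), and -1 to 0 when each library was left out. EBF2 minus H3K27ac was 0 for gene bodies only, peaks of 10 kb or less and 50% of the body covered. Members lost in Cre were 1 with H3K27ac at 50 kb, and 0 to 1 with either antibody when each library was left out. The shares of all genes lost under these settings were not computed. Clusters holding a member with a peak in all lists numbered 1, 2 when joined up to 250 kb, and 0 with peaks of 10 kb or less. The covered length kept its direction in 11 alternatives per antibody, from 3.04 to 30.9 kb with EBF2 and from -35.3 to -4.7 kb with H3K27ac. The libraries of Vec and Cre overlapped, however, with EBF2 at 50 kb (exact test, p = 0.667) and with H3K27ac for gene bodies only (-13.5 kb) and a stricter score (-16.7 kb; exact test, p = 0.667 each), and with both antibodies for peaks of 10 kb or less (exact test, p = 1). The replicate numbers are not stated to pair libraries (correlation of deviations 0.16 for EBF2 and -0.09 for H3K27ac over 20665 genes). With a replicate block the differences stayed at -0.5 members (exact test, p = 1, both antibodies) and at 22.3 and -21.5 kb (exact test, p = 0.5 each, the smallest possible), and EBF2 minus H3K27ac at -0.5 (p = 0.5, exact). The cause of these shifts was not tested. Unknown depth limits every absence of a peak.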
